A study of Mus musculus with 6 samples.

Results

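Imprinted growth genes are transcribed mainly from the maternal or mainly from the paternal copy. The 10 genes Igf2, H19, Cdkn1c, Igf2r, Grb10, Mest, Peg3, Dlk1, Meg3 and Snrpn were taken as a given list, and the 500 kb bin that holds the transcription start site (GENCODE annotation, mm10) of each was read from Hi-C matrices of C2C12 cells, a line of mouse muscle precursors that goes back to crush-injured thigh muscle of the C3H strain. Igf2 and H19 share a bin, so the 10 genes gave 9 bins on 5 chromosomes, out of 4930 autosomal bins, and all 9 were among the 4727 bins with data in every condition. Hi-C joins and sequences pieces of DNA that lie close together in the nucleus, and the chromatin here was cut with HindIII. The 6 libraries came from proliferating myoblasts in growth medium (day 0, no AraC), from myotubes after 3 days in differentiation medium without AraC, and from myotubes at day 7 that had 10 µg/mL AraC (cytosine arabinoside, which kills dividing cells) from day 3 onwards and are called AraC-treated myotubes, or after AraC, with 2 biological replicates each. The day 3 myotube cultures still held myoblasts, and AraC and culture time differed together between both kinds of myotube culture, so AraC and time cannot be told apart. Both replicates of a condition were pooled before deposition, so each value below is 1 value per condition with no error between replicates, and no test between conditions was possible. The matrices hold correlation coefficients and not contact counts, so the depth behind a single value cannot be read from them. Per condition the study reports different depths, with the fewest valid read pairs after AraC. In its figures the share of read pairs between chromosomes and the correlation of replicates were lowest in myoblasts. The part of these differences in the values below was not tested. In such bulk material a different mix of cells and a different folding within cells cannot be told apart either.

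Imprinted genes lie in clusters in which a stretch of DNA methylated on only the maternal or only the paternal copy steers several genes at once, often through a long non-coding RNA. Many of them act on growth, and in muscle the Igf2 and H19 pair is known for its activity in differentiating myoblasts. The pathway around them is the insulin-like growth factor (IGF) axis: Igf2 encodes a growth factor, Igf2r a receptor that removes it by taking it to lysosomes, and Grb10 an adaptor that dampens insulin and IGF receptors, while Cdkn1c encodes the cell cycle inhibitor p57Kip2. Both parental copies fall in the same bin, and the matrices do not separate them.

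The bins lay as follows in mm10. Igf2 and H19 shared chr7:142500001-143000000, with Ins2, Th and Ascl2 among its 6 protein-coding start sites. Cdkn1c lay in the next bin, chr7:143000001-143500000, with Kcnq1, Cd81 and Slc22a18 among its 7 start sites, so both bins are parts of 1 imprinted region near the end of chromosome 7. Peg3 lay in chr7:6500001-7000000 and Snrpn in chr7:60000001-60500000. Mest lay in chr6:30500001-31000000, Grb10 in chr11:12000001-12500000 and Igf2r in chr17:12500001-13000000. Dlk1 and Meg3 are members of the same imprinted cluster, but a bin border fell between them, which put Dlk1 in chr12:109000001-109500000 and Meg3 in chr12:109500001-110000000. The start site of Grb10 was 38.7 kb inside its bin and most of the gene lay in the bin before it.

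The member bins were gene-rich and GC-rich beside the rest of the genome. Their median was 6 protein-coding start sites, against 2 over all 4727 bins, and their median GC content was 45.5% against 41.7%. The bin of Cdkn1c had the highest GC content of the 9, 48.1%, and the bin of Snrpn the lowest, 37.8%. HindIII sites, which set how finely the assay can cut a bin, numbered 142 in the median member bin against 162 over all bins, and the bin of Cdkn1c held only 119. The part of these features in the values below was not tested.

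Promoter sequence is shown for Igf2, Igf2r and Grb10, which stand for the 3 kinds of bin described below: higher in myotubes, different in sign, and low throughout. Each run is the 250 bases before a RefSeq start site (GRCm38.p6, all on the minus strand, written 5′ to 3′), and the capitals mark E-boxes, the letters CANNTG to which MyoD and other basic helix-loop-helix factors of muscle can bind. The motif reads the same on both strands, so each match was counted once.
Igf2, chr7:142666817-142667066: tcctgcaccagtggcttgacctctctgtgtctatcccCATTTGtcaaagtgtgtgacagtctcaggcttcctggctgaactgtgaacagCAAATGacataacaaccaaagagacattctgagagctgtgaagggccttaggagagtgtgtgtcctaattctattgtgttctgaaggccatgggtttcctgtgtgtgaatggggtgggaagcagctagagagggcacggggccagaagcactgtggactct
Igf2r, chr17:12769707-12769956: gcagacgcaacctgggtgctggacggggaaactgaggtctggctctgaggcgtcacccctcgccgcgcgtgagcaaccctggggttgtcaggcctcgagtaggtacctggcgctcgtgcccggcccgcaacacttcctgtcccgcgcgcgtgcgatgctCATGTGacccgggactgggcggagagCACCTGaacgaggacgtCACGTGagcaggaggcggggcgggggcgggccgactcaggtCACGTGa
Grb10, chr11:12037421-12037670: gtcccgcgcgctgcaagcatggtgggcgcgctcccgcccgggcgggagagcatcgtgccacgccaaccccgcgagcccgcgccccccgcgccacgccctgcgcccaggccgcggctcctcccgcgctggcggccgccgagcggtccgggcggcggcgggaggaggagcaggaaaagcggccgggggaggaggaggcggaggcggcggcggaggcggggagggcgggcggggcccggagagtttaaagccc
The Igf2 stretch held 2 E-boxes and 1 CpG, the Igf2r stretch 4 E-boxes and 27 CpGs, and the Grb10 stretch no E-box and 40 CpGs. For each gene the start site nearest to the GENCODE start was shown, and the counts depend on that choice. The stretches before the other Igf2 start sites held no E-box and 6, 22 and 10 CpGs. That before the other Grb10 start site held 1 E-box and 8 CpGs. Of 31387 autosomal promoters of that length, 66.1% held at least 1 E-box and the median held 6 CpGs, so an E-box in such a window is common. Of the members, 8 had an entry in the table used, with 18 start sites between them, and 10 of those 18 stretches held an E-box. H19 and Cdkn1c are named only. At 500 kb per bin the Hi-C values describe a promoter's wide surroundings and not the promoter itself.

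Whether each locus lay in the open, gene-rich A compartment or in the closed B compartment was read from PC1, the first principal component of the correlation matrix of its chromosome. Its sign was set so that PC1 above 0 (A) goes with a high density of protein-coding start sites. The spread of PC1 over the autosomal bins differed between conditions, with an SD of 0.859 in myoblasts, 1.61 in myotubes and 1.36 after AraC. PC1 was therefore also divided by that SD, and differences of PC1 between conditions are given on this scaled PC1 unless said otherwise. Values of single bins are often given as PC1, whose size is not comparable between conditions.

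In myoblasts 3 of the 9 bins were in A (33.3%, exact 95% binomial interval 7.49 to 70.1%), where 38.3% of all bins were in A. In myotubes 4 of 9 were in A (44.4%, 13.7 to 78.8%) against 36.5% of all bins, and in AraC-treated myotubes again 4 of 9 against 35.5%. The 9 bins are thus split between the compartments much as the genome is, and the intervals, which cover counting error over 9 bins only, are wide. They also treat the bins as independent. The neighbouring bins of Igf2 with H19 and of Cdkn1c are not, nor are those of Dlk1 and Meg3, so the intervals are too narrow. The median scaled PC1 of the members was -0.53, -0.53 and -0.31 in myoblasts, myotubes and AraC-treated myotubes, beside -0.33, -0.37 and -0.39 over all bins. Under this shared median the loci fell into an A side of Mest, Igf2 with H19, Cdkn1c and, in myotubes, Igf2r, and a B side of Peg3, Snrpn, Dlk1, Meg3 and Grb10.

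**Figure D1:**
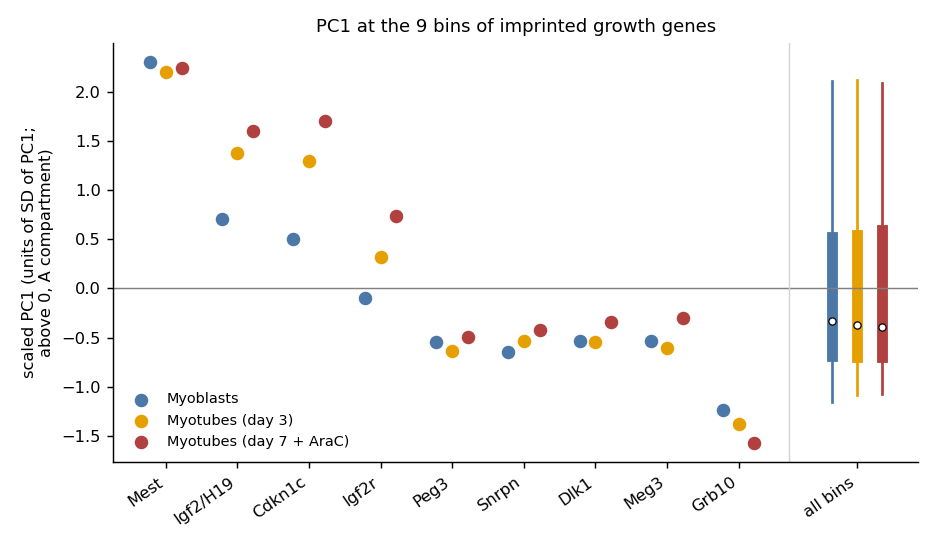
Scaled PC1 (y axis, in units of the SD of PC1 over autosomal bins; above 0 is the A compartment) of the 9 bins in myoblasts, day 3 myotubes and day 7 AraC-treated myotubes, 1 pooled value per point. On the right are all 4727 bins, with the median as a white point, the range between the quartiles as a thick bar and the 5th to 95th percentile as a thin line. Igf2 with H19, Cdkn1c and Igf2r stand higher in both kinds of myotube culture than in myoblasts, and the other loci differ less from their myoblast value.

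Mest, a paternally expressed gene for a protein of the hydrolase fold, had the highest PC1 of the members in each condition. Its PC1 was 1.98 in myoblasts, 3.54 in myotubes and 3.04 after AraC, at percentiles 96.4, 95.9 and 96.6 of all bins. Those raw values differ, but on the SD scale they were 2.30, 2.20 and 2.24, so the bin kept its place while the whole component widened.

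The bin of Igf2 and H19 was in A in all 3 conditions and much further into A in myotubes. H19, a long non-coding RNA expressed from the maternal copy, and Igf2, expressed from the paternal copy, cannot be separated here. PC1 was 0.607 in myoblasts, 2.21 in myotubes and 2.17 after AraC, and scaled PC1 was 0.71, 1.37 and 1.60. Scaled PC1 was thus higher by 0.67 in myotubes and by 0.89 in AraC-treated myotubes, at percentiles 98.5 and 97.7 among the differences of all bins.

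Cdkn1c, a gene expressed from the maternal copy, showed the largest difference from myoblasts of the members. Its PC1 was 0.428, 2.09 and 2.32 in myoblasts, myotubes and AraC-treated myotubes, and its scaled PC1 was 0.50, 1.30 and 1.71. From myoblasts to myotubes scaled PC1 was higher by 0.80, rank 39 from the top of 4727 bins, and from myoblasts to AraC-treated myotubes by 1.21, rank 44. Being neighbours on chromosome 7, the bins of Cdkn1c and of Igf2 and H19 are not independent examples.

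Igf2r was the only member whose PC1 differed in sign between conditions. It was just below 0 in myoblasts, -0.080, and above 0 in myotubes, 0.515, and after AraC, 1.00. On the SD scale the values were -0.09, 0.32 and 0.74, a difference of 0.41 to myotubes and 0.83 to AraC-treated myotubes, at percentiles 94.6 and 97.1. The myoblast value lay close to 0, so the change of compartment rests on a small negative number, whereas the size of the difference does not. When the bins nearest to 0, the lowest 20% of absolute PC1 on each chromosome, were left out, 0 member bins differed in sign. Igf2r was itself among the bins left out, so this count follows from the filter.

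The B side held 4 loci of moderate depth. Peg3, a paternally expressed zinc finger gene, had PC1 of -0.464, -1.03 and -0.664 in the same order of conditions. Snrpn, which encodes a protein of small nuclear ribonucleoproteins in the Prader-Willi and Angelman region, had -0.559, -0.854 and -0.572. Dlk1, which encodes a Notch-like membrane protein, had -0.462, -0.878 and -0.458, and Meg3, a long non-coding RNA of the same cluster, -0.459, -0.982 and -0.415. On the SD scale all 4 stayed between -0.65 and -0.31. Their order among themselves was not the same in the 3 conditions, and their values lay too close together to be ranked.

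Grb10 had the lowest PC1 of the 9 bins in each condition, -1.07, -2.22 and -2.13, at percentiles 3.81, 2.09 and 1.27 of all autosomal bins. On its own chromosome the same bin stood only at percentiles 34.2, 31.2 and 24.5 of 237 bins. PC1 is computed chromosome by chromosome, and on chromosome 11 it took up 69.2%, 90.3% and 86.7% of the variance, the highest share of the 19 autosomes in each condition. The genome-wide percentile of Grb10 is therefore to be read together with the percentile within chromosome 11. For the other members both percentiles lay closer together, at 86.5 over all bins and 84.5 over chromosome 7 for Igf2 with H19 in myotubes, for example.

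Few member bins crossed 0. From myoblasts to myotubes 1 of 9 member bins, Igf2r, went from B to A, where 2.77% of all bins did, and 0 moved the other way, where 4.55% did. From myoblasts to AraC-treated myotubes the counts were 1, again Igf2r, beside 3.72% of all bins, and 0 beside 6.52%. Between myotubes and AraC-treated myotubes 0 member bins entered A and 0 left it, beside 2.05% and 3.07% of all bins. With only 9 bins, a count of 1 says little about the list as a whole.

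A threshold on the size of the difference, 0.5 units of scaled PC1, was chosen after the values had been seen. From myoblasts to myotubes 2 of 9 member bins were higher by more than that, Igf2 with H19 and Cdkn1c, where 3.62% of all bins were, and 0 were lower, where 2.54% were. From myoblasts to AraC-treated myotubes 3 were higher, these and Igf2r, where 7.00% of all bins were, and 0 were lower, where 5.39% were. From myotubes to AraC-treated myotubes 0 were higher and 0 lower, where 2.07% and 0.148% of all bins were. Igf2r lay just outside the threshold in the first pair, at 0.41, and Igf2 with H19 just inside, at 0.67.

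From myotubes to AraC-treated myotubes 8 of 9 member bins had a higher scaled PC1, against 47.0% of all bins, with a median difference of 0.21 against -0.01. The differences were 0.42 for Igf2r, 0.41 for Cdkn1c, 0.30 for Meg3, 0.22 for Igf2 with H19, 0.21 for Dlk1, 0.15 for Peg3, 0.11 for Snrpn and 0.04 for Mest, and Grb10 alone was lower, by -0.19. The SD of this difference over all bins was 0.18. Igf2r, Cdkn1c and Meg3 were the furthest out, at percentiles 97.1, 96.8 and 94.2 of all bins, and Igf2 with H19, Dlk1 and Peg3 stood at percentiles 90.4, 89.9 and 85.3. From myoblasts to myotubes the split was 4 of 9 higher with a median of -0.01, beside 47.5% and -0.01 over all bins.

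**Figure D2:**
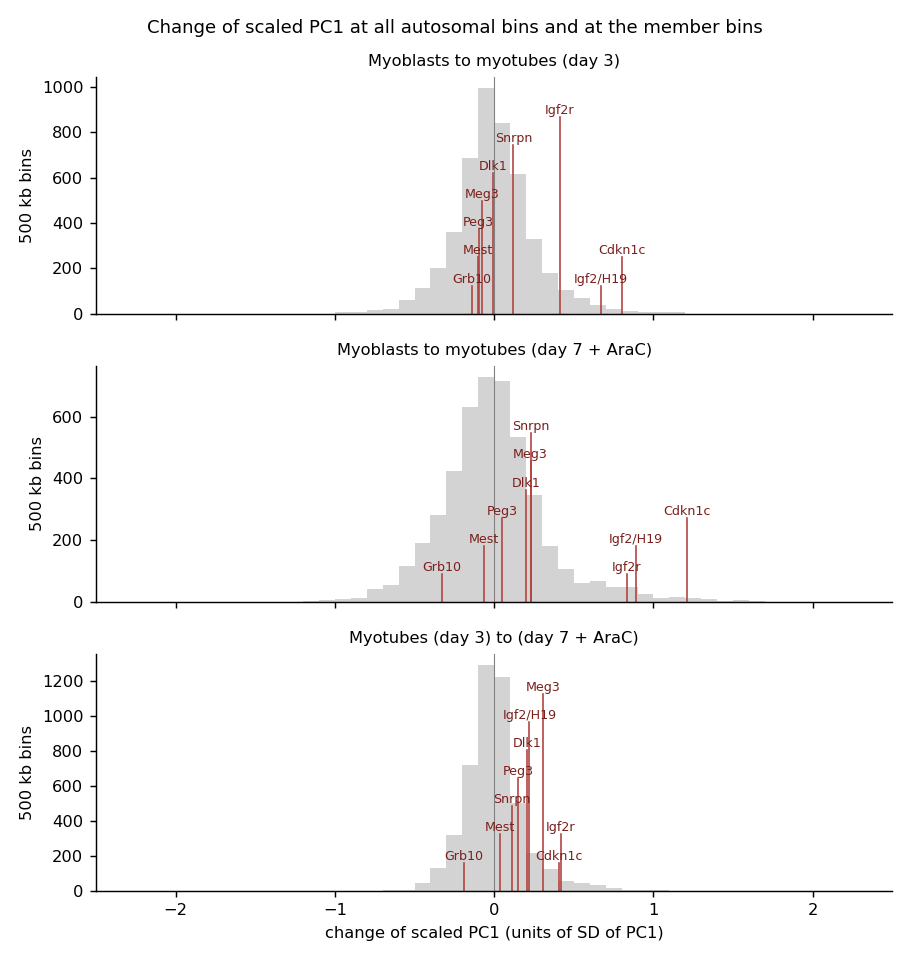
Change of scaled PC1 (x axis, in units of the SD of PC1) between pairs of conditions, with the number of 500 kb bins per 0.1 unit as grey bars and the 9 member bins as labelled red lines whose heights carry no value. Cdkn1c, Igf2 with H19 and Igf2r lie in the right tail in both comparisons with myoblasts, at 1.21, 0.89 and 0.83 for AraC-treated myotubes, while the other loci lie in the body of the distribution.

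Neighbouring bins were followed for 2 Mb on each side. Around Igf2, H19 and Cdkn1c all neighbours with data were in A in each condition, 8 of 8 for both bins. In myoblasts these bins formed a dip within that A region, with scaled PC1 of 0.71 and 0.50 while the next bin beyond Cdkn1c stood at 1.71. In myotubes the dip was shallower, with 1.37 and 1.30 between 1.55 in the bin before and 2.00 in the bin beyond. In AraC-treated myotubes the dip was filled, with all bins from 1 Mb before Igf2 to 1.5 Mb beyond it between 1.60 and 2.03.

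Igf2r had the most sign differences around it. Of its 8 neighbours 3 were in A in myoblasts, 5 in myotubes and 8 after AraC, and 5 differed in sign between conditions. Among these were a pair of bins without protein-coding start sites, the bin of Agpat4, Map3k4 and Plg just before Igf2r, and the bin of Sod2, Gpr31b, Tcp10b, Unc93a and the Smok2a and Smok2b genes just after it. The bin before Igf2r had PC1 of -0.122, 0.463 and 0.950 and the bin after it -0.382, -0.575 and 0.107. On the SD scale the bin after it had -0.44, -0.36 and 0.08. In myotubes the bins 1.5 and 1 Mb before Igf2r were in B as well, at PC1 of -0.167 and -0.606. Only after AraC did the value at Igf2r belong to a stretch of several megabases in A. The mean scaled PC1 of the 8 neighbours was -0.01, 0.12 and 0.56.

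The Dlk1 and Meg3 bins lay in a trough between A bins on either side. Of the 8 neighbours of Dlk1 4 were in A in myoblasts, 4 in myotubes and 5 after AraC. The neighbour that differed in sign was that of Dio3, the imprinted deiodinase gene at the far end of the same cluster, and Ppp2r5c, with PC1 of -0.095, -0.288 and 0.008, a value close to 0 throughout. Around Peg3 5 of 8 neighbours had data, and A bins among them numbered 2 in myoblasts and 1 in each kind of myotube culture, since 1 bin crowded with zinc finger and vomeronasal receptor genes had PC1 of 0.155, -0.188 and -0.161. Around Snrpn 7 of 8 neighbours had data and around Grb10 all 8 did, and none of these was in A in any condition. Around Mest 7 of 8 neighbours were in A in myoblasts and in myotubes and 8 after AraC, and the bin of 1700012A03Rik, 1.5 Mb away, went from -0.065 and -0.184 to 1.23.

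**Figure D3:**
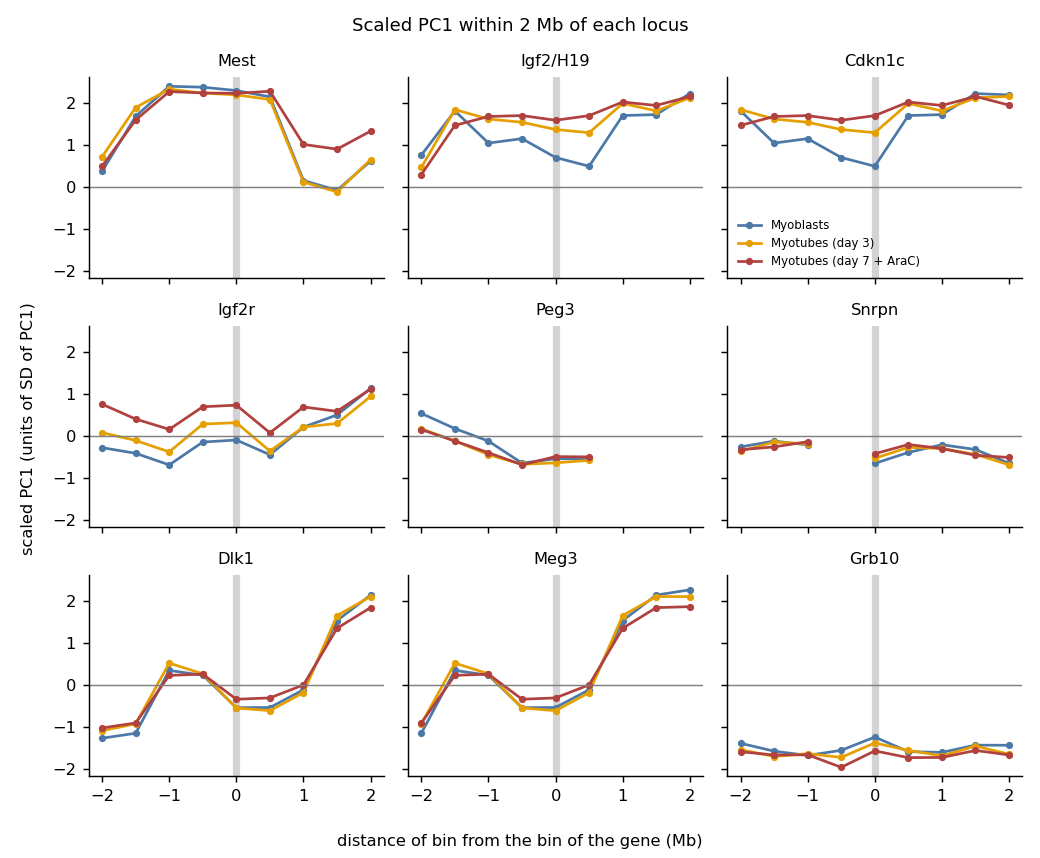
Scaled PC1 (y axis, in units of the SD of PC1) of the bins within 2 Mb of each locus (x axis, distance in Mb from the bin of the gene, marked by the grey bar), 1 line per condition and gaps where a bin had no data. The dip at Igf2, H19 and Cdkn1c in myoblasts is shallower in myotubes and filled in AraC-treated myotubes, the bins from 2 Mb before to 1.5 Mb beyond Igf2r are highest in AraC-treated myotubes, and Grb10 lies in a uniform B stretch.

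The coefficients of each locus with bins of other chromosomes did not enter its own PC1, but the partner bins were sorted into A and B by theirs, so the measure below is not free of PC1. Over all bins, PC1 also correlated with the component computed from bins of other autosomes, at 0.981 in myoblasts, 0.987 in myotubes and 0.987 after AraC. The measure is thus no separate result. The mean correlation coefficient of a member bin with the A bins of the other autosomes, minus that with the B bins, is called its A preference here. Mest had the highest, 0.156 in myoblasts, 0.304 in myotubes and 0.261 after AraC, at percentiles 95.6, 94.9 and 95.4 of all bins. Igf2 with H19 had 0.036, 0.182 and 0.201, moving from percentile 76.0 to 85.4 and 89.3. Cdkn1c had 0.018, 0.177 and 0.219, from percentile 70.9 to 84.9 and 91.4. Both bins thus stood higher among all bins in both kinds of myotube culture than in myoblasts.

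Igf2r had an A preference of -0.004 in myoblasts, 0.068 in myotubes and 0.125 after AraC, at percentiles 62.2, 75.2 and 81.6. The 5 loci of the B side had a negative A preference throughout. Peg3 had the lowest, -0.054, -0.147 and -0.102, at percentiles 13.4, 13.6 and 29.5. Grb10 had -0.032, -0.110 and -0.099, at percentiles 46.1, 41.2 and 32.8, so between chromosomes it was an average bin in spite of its low PC1. Dlk1 moved from percentile 18.7 in myoblasts to 51.6 in AraC-treated myotubes and Meg3 from 19.3 to 55.5.

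**Figure D4:**
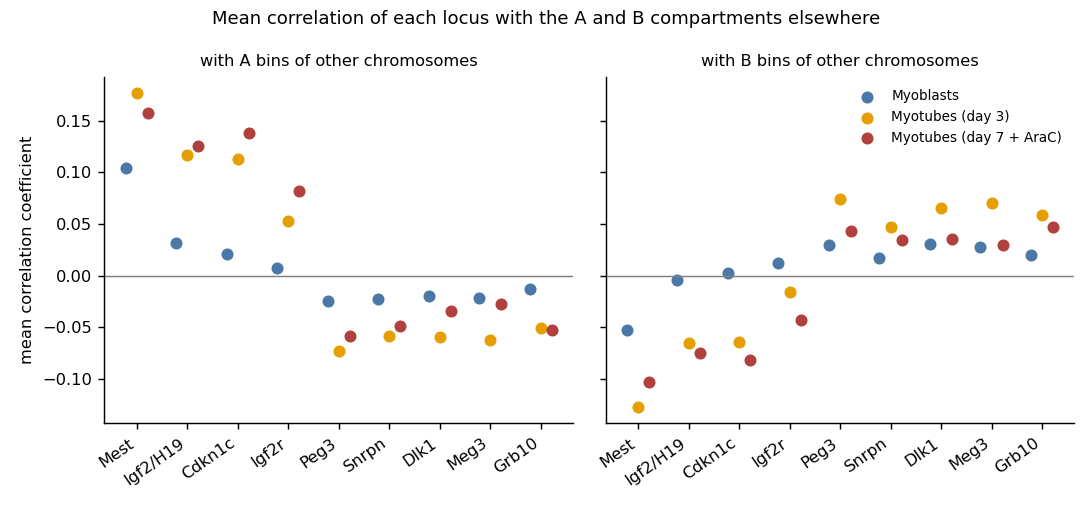
Mean deposited correlation coefficient (y axis, no unit) of each member bin with all A bins (left) and all B bins (right) of other autosomes in the 3 conditions, 1 pooled value per point. Igf2 with H19, Cdkn1c and Igf2r are higher with A bins and lower with B bins in myotube cultures than in myoblasts, where Igf2 with H19 had 0.031 with A bins against 0.117 and 0.126 in myotubes and AraC-treated myotubes.

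The correlation among the loci themselves was read for the 29 pairs on different chromosomes. The background for each pair was the mean over all pairs of autosomal bins on different chromosomes in the same classes, where a class joins the fifth of PC1 in that condition with the number of protein-coding start sites (0, 1 to 4, 5 to 9, or 10 and more). The mean coefficient of the 29 pairs was 0.0024 in myoblasts, 0.0090 in myotubes and 0.0152 after AraC. Over all pairs of autosomal bins on different chromosomes the means were 0.0053, 0.0074 and 0.0031, with SDs of 0.0446, 0.0890 and 0.0732. The class means were 0.0018, -0.0064 and -0.0044, so the members lay above their class by 0.0006, 0.0154 and 0.0196. Above their class were 14, 18 and 17 of the 29 pairs. Without the bin of Igf2 and H19 this excess was -0.0013, 0.0075 and 0.0120, and without the bins of chromosome 7 it was -0.0014, -0.0064 and 0.0079.

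The spread among the 29 pairs was far wider than their mean. In myoblasts the coefficients ran from -0.089 (Mest with Peg3) to 0.057 (Mest with Igf2 and H19), in myotubes from -0.166 to 0.222 and in AraC-treated myotubes from -0.127 to 0.249 (Mest with Cdkn1c). Split by side, the 5 pairs of the A side had a mean of 0.013, 0.153 and 0.197 in the 3 conditions, the 8 pairs of the B side 0.015, 0.060 and 0.033, and the 16 mixed pairs -0.007, -0.061 and -0.050. Over all bins, pairs of A bins had means of 0.049, 0.089 and 0.082. Pairs of B bins had 0.021, 0.058 and 0.041, and pairs of an A with a B bin -0.021, -0.060 and -0.054. The mean of the matched classes was 0.0098, 0.129 and 0.108 for the A side pairs, with 3, 3 and 5 of 5 above their class. For the B side pairs it was 0.027, 0.075 and 0.033, with 2, 3 and 3 of 8 above. For the mixed pairs it was -0.014, -0.089 and -0.058, with 9, 12 and 9 of 16 above. Since loci of the A side are in A in myotubes by the definition of the side, the contrast between sides describes these pairs and is no separate result.

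Of the 8 pairs with Igf2r, those with Igf2 and H19 and with Cdkn1c stood highest within their class in both kinds of myotube culture. The other pairs lay at percentiles 47.9 to 74.7 of their class in myotubes and 0.432 to 91.3 after AraC. Igf2 with H19 and Igf2r had a coefficient of -0.028 in myoblasts, 0.142 in myotubes and 0.176 after AraC. The class means for this pair were 0.006, 0.044 and 0.039, and the pair stood at percentiles 5.18, 95.3 and 99.3 of the bin pairs of its class. Cdkn1c and Igf2r had -0.018, 0.120 and 0.211, at percentiles 13.04, 90.1 and 99.8. With Igf2r, both neighbouring bins of chromosome 7 thus lay low in their class in myoblasts and high in both kinds of myotube culture. The pattern was not particular to the pair of growth factor gene and receptor gene. The class was not the same one, since PC1 was sorted within each condition. Of 5 PC1 classes, counted from the lowest, Igf2 with H19 was in 4 in myoblasts and 5 in both kinds of myotube culture. Igf2r was in 3 and then 4. The percentiles of myoblasts and of myotube cultures are thus places in different backgrounds, and their difference is not independent of that in PC1. A class is also wide, and PC1 was not matched within it. In class 4 Igf2r stood at PC1 percentile 70.7 of all bins in myotubes and 77.2 after AraC. The higher place of its pairs after AraC is thus not independent of PC1 either. Igf2r with Mest had 0.013, 0.076 and 0.118, at percentiles 88.1, 64.3 and 91.3. Divided by the SD of all coefficients between chromosomes, Igf2 with H19 and Igf2r had -0.63, 1.59 and 2.41, so the order of the conditions was the same on that scale.

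Pairs of the strongest A loci lay nearer the middle of their class. Mest with Igf2 and H19 had 0.057, 0.222 and 0.233, where the class means were 0.029, 0.253 and 0.211 and the percentiles 80.3, 45.9 and 64.1. Mest with Cdkn1c had 0.043, 0.205 and 0.249, at percentiles 67.2, 39.9 and 69.1. Their higher coefficients in myotubes went with a higher class mean. Igf2 with H19 and Cdkn1c were in a higher PC1 class there than in myoblasts, so this mean is not of the same bins.

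At the other end, Peg3 with Igf2r had 0.044, 0.009 and -0.068, in AraC-treated myotubes the lowest place of any member pair within its class, percentile 0.432. Grb10 with Meg3 had 0.005, 0.029 and 0.022, and stood at percentile 1.45 of its class in myotubes. The bin of Igf2 and H19 with that of Meg3 had 0.034, -0.003 and 0.013, while the class means in myotubes and AraC-treated myotubes were -0.107 and -0.063. This placed that pair at percentiles 95.8, 99.7 and 99.0 of its class in the 3 conditions. It was not particular to these genes. Cdkn1c with Meg3 stood at percentiles 96.6, 99.5 and 98.8, and Cdkn1c with Dlk1 at 97.2, 99.1 and 98.2. Igf2 and H19 with Dlk1 stood at 91.7, 94.2 and 94.0. In both kinds of myotube culture, values near 0 are high only because bins of these classes are on average anticorrelated. In all, 87 pair values over the 3 conditions were set against their classes, and the pairs named here were picked from both ends of that range.

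**Figure D5:**
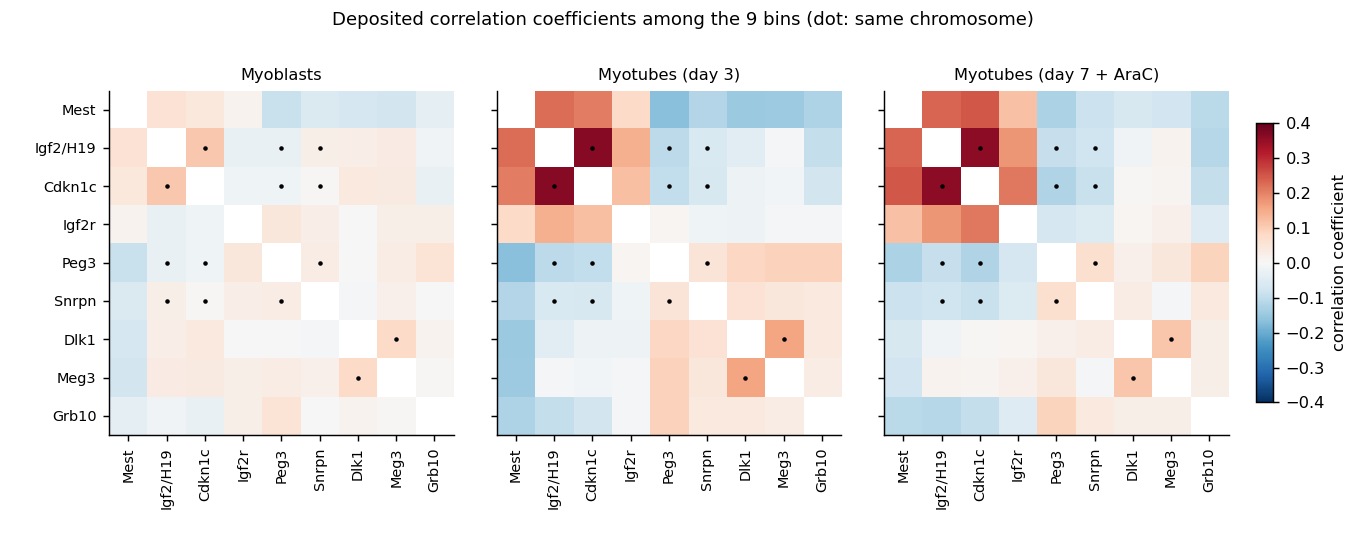
Deposited correlation coefficients (colour scale, no unit, blue below 0 and red above) among the 9 bins in the 3 conditions, with loci of the A side first and a dot on pairs of the same chromosome. The block of Mest, Igf2 with H19, Cdkn1c and Igf2r is pale in myoblasts and red in both kinds of myotube culture, and its pairs with Peg3, Snrpn and Grb10 are mostly blue.

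Within chromosomes, the neighbouring bins of Igf2 with H19 and of Cdkn1c had a coefficient of 0.107 in myoblasts, 0.363 in myotubes and 0.359 after AraC. Over the 256 neighbouring pairs of chromosome 7 the medians were 0.061, 0.094 and 0.078, which placed this pair at percentiles 80.5, 96.1 and 98.4. Dlk1 and Meg3, split by the bin border on chromosome 12, had 0.076, 0.157 and 0.110, against medians of 0.061, 0.092 and 0.093 at percentiles 68.0, 79.0 and 63.9. Both imprinted regions of chromosome 7 on the B side were anticorrelated with the end of the chromosome in myotube cultures. Peg3 and Cdkn1c had -0.016, -0.099 and -0.122 over 136.5 Mb. Only 9 bin pairs of the chromosome lay that far apart, and their medians were below 0 as well, at -0.030, -0.045 and -0.057. Snrpn and Cdkn1c had 0.004, -0.063 and -0.090 over 83 Mb. The medians of the 101 bin pairs at that distance were 0.018, 0.051 and 0.037, which placed this pair at percentiles 35.6, 17.8 and 9.90. Peg3 and Snrpn, 53.5 Mb apart, had 0.029, 0.052 and 0.065.

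Whole interaction profiles were compared by correlating a bin's row with the same row in another condition, over the other bins of its chromosome. From myoblasts to myotubes the median over the members was 0.884, beside 0.877 over all bins, and from myoblasts to AraC-treated myotubes 0.849 beside 0.839. Igf2r had by far the lowest values of the members, 0.145 and 0.061, at percentiles 4.95 and 6.92. Cdkn1c followed with 0.535 and 0.521, and Igf2 with H19 with 0.731 and 0.733. The myoblast PC1 of Igf2r lay close to 0, at -0.080. Bins of like PC1 were not set beside it, and the part of this in its low values was not tested. Mest and Grb10, at the opposite ends of PC1, had 0.921 and 0.913 from myoblasts to myotubes. Between myotubes and AraC-treated myotubes all 9 lay between 0.917 and 0.980, with Igf2 with H19 and Cdkn1c both at 0.980. Over all bins the median was 0.947, and Igf2r, the least alike of the members at 0.917, stood at percentile 30.4.

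The bins on other chromosomes most like each member were taken as the 3 with the highest coefficient averaged over the conditions. Igf2 with H19, Cdkn1c and Igf2r shared as a top partner the bin of Rbfox3 and Enpp7, chr11:118500001-119000000, with mean coefficients of 0.344, 0.311 and 0.146. With Igf2 and H19 its coefficient was 0.160 in myoblasts, 0.439 in myotubes and 0.432 after AraC, and with Igf2r 0.014, 0.165 and 0.260. The bin of Foxf1, Mthfsd and Foxc2 on chromosome 8 was a top partner of both Igf2 with H19 (0.314) and Cdkn1c (0.316), and the bin next to it, with Gins2, 1190005I06Rik and Gm27021, of Igf2 with H19 (0.324) and Igf2r (0.141). The remaining top partners were the bin of C1qtnf6, Sstr3 and Rac2 for Cdkn1c (0.306) and that of Gm49425, Krt84 and Krt82 for Igf2r (0.137).

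Mest had the highest partner coefficients of all members, 0.391 with the bin of Mrtfa, Mchr1 and Slc25a17, 0.387 with that of Tcp11, Scube3 and Zfp523 and 0.386 with that of Fam102a, Dpm2 and Pip5kl1. Mrtfa encodes a coactivator of serum response factor. Partners of the B side were far weaker. Peg3, Snrpn and Grb10 shared the bin of Sorcs3 on chromosome 19 (0.116, 0.075 and 0.106). Peg3 also had the bin of A830031A19Rik and Bcl11a (0.117), Snrpn that of Lcp2, 4930469K13Rik and Foxi1 (0.078), and Grb10 those of Ms4a18, Ms4a8a and 1700017D01Rik (0.108) and of Pcsk5 (0.107). Dlk1, Meg3 and Snrpn shared a bin of chromosome 15 without protein-coding genes (0.128, 0.125 and 0.074). All top partners of the A side had PC1 above 0 and all of the B side below 0 in each condition. A shared partner is a likeness of profile and is no contact shown between 2 genes.

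Other imprinted genes were read the same way. The list of 49 genes fell into 27 bins, of which 7 were member bins, and 20 were left. Of these 20, 10 were in A in myoblasts and 8 in each kind of myotube culture, beside 38.3%, 36.5% and 35.5% of all bins, and their median scaled PC1 was 0.01, -0.18 and -0.07. From myoblasts to AraC-treated myotubes 1 moved into A and 3 out of it, beside 3.72% and 6.52% of all bins, and 2 were higher by more than 0.5 and 1 was lower, beside 7.00% and 5.39%. Of the genes within member bins, Cd81, Tssc4, Kcnq1, Kcnq1ot1 and Slc22a18 share the value of Cdkn1c, Ins2 and Ascl2 that of Igf2, and Airn, Slc22a2 and Slc22a3 that of Igf2r. Airn is the non-coding RNA that silences the paternal Igf2r.

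Outside the member bins Slc38a4, an amino acid transporter gene, had the highest difference in scaled PC1 from myoblasts to AraC-treated myotubes, 0.86, with PC1 of 0.579, 1.71 and 2.08. Nnat followed with 0.82, at 0.691, 2.11 and 2.20. In the opposite direction, the neighbouring paternally expressed genes Sgce and Peg10, with Ppp1r9a, lay in a bin with PC1 of 0.188, -0.343 and -0.244, and Asb4 in the next bin had 0.176, -0.574 and -0.651. Plagl1, which encodes a zinc finger regulator of other imprinted genes, had 0.142, -0.247 and -0.045. Inpp5f had -0.036, 0.111 and -0.034. The sign of the difference was thus not the same for all imprinted genes.

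The IGF axis list of 15 genes gave 13 bins. In A were 9 in myoblasts, 8 in myotubes and 6 after AraC, beside 38.3%, 36.5% and 35.5% of all bins, and the median scaled PC1 was 0.51, 0.30 and -0.04. From myoblasts to AraC-treated myotubes 0 moved into A and 3 out of it, where 3.72% and 6.52% of all bins did, and 0 were higher by more than 0.5 and 2 were lower, where 7.00% and 5.39% were. The 3 that left A were Irs1 and Irs2, which encode adaptors of the insulin and IGF receptors, with PC1 of 0.312, 0.484 and -0.174 and of 0.685, 0.444 and -0.048, and Igf2bp3, an RNA-binding protein gene, with 0.259, -0.475 and -0.542. The difference in scaled PC1 was -0.83 for Irs2 and -0.70 for Igf2bp3.

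The list of 15 genes that set or keep imprints gave 15 bins, of which 12 were in A in myoblasts and 10 in each kind of myotube culture, against the same 38.3%, 36.5% and 35.5% of all bins, with a median scaled PC1 of 0.43, 0.37 and 0.32. From myoblasts to AraC-treated myotubes 2 moved out of A and 0 into it, against 6.52% and 3.72% of all bins, and 2 were higher by more than 0.5 and 4 were lower, against 7.00% and 5.39%. Dnmt1, the maintenance DNA methyltransferase, had PC1 of 0.495, 0.757 and -0.255, a difference of -0.76 in scaled PC1. Dnmt3b, a methyltransferase that sets new marks, had 0.038, -0.253 and 0.433, and Arid4b had 0.006, -0.661 and -0.616, both from values near 0. Zfp445, a zinc finger protein that protects imprints, had 0.540, 1.54 and 1.92, a difference of 0.79.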

How the data were processed

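Hi-C was done on 6 C2C12 libraries, 2 replicates in each of 3 conditions. Per the labels and the methods of the study, chromatin was cut with HindIII, and reads were mapped to mm10 with HiCUP, which uses Bowtie. The authors pooled both replicates and deposited, for each condition, 1 HOMER matrix of 500 kb bins, whose score values are correlation coefficients between the interaction profiles of 2 bins (unit: score from -1 to 1). GRCh38 is also named in the processing notes of the submitters. All bins started inside the GRCm38 chromosomes of their name.

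The X and Y chromosomes were left out. Rows with only 0 were taken as no data. PC1 was computed for each chromosome (columns centred, not scaled; NumPy 2.4.6) and signed by protein-coding start sites (GENCODE vM21, 20807 genes placed). Coefficients were averaged in Python 3.11.15. Percentiles are ranks among 4727 bins, given as a description. The functions were tested on simulated matrices. Genes named are the members, genes of the lists whose bin differed in sign or had the 3 highest or 3 lowest differences outside the member bins, the top 3 partner bins and neighbours that differed in sign. Some of these bins are not reported here. Members, lists and tests were chosen with earlier results of these data known, and the threshold of 0.5 after seeing the values. Alternatives were another component, centring, scaling, odd or even partner bins only, the bin of the gene's middle, wider windows, other classes, rank correlation and leaving out loci.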

Additional observations from a re-analysis of the deposited data

How the results depend on the processing

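No paired analysis was possible because both replicates of each condition were pooled before deposition, and leaving out a replicate was not possible for the same reason. A value was counted as kept when it stayed within 1.5 times the main value and on its side of 0. The number of member bins in A was kept, by that limit, under each of 7 alternatives in each condition. In myotubes it was 3 of 8 among bins with absolute PC1 above the 20th percentile of their chromosome, which left out Igf2r, against 4 of 9. The 1 change of compartment, Igf2r, was kept under the 5 other ways to compute the component. The count was 0 among bins with absolute PC1 above the 20th percentile of their chromosome. For these, 8 of 9 bins were left from myoblasts to myotubes and 6 of 9 from myoblasts to AraC-treated myotubes. Igf2r was itself left out in both pairs, so the 0 follows from the filter. The median profile correlation of the members was kept under all 3 alternatives in each pair. That of Igf2r from myoblasts to AraC-treated myotubes turned to -0.014 without bins within 2 Mb and to -0.122 over other autosomes.

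The mean coefficient among the 29 pairs in myoblasts was 0.0125 as a median, 0.0048 over 3 bins at each locus, 0.0054 with the bin of the gene's middle, 0.0043 with each gene once, 0.054 in units of the SD, -0.00023 without the bin of Igf2 and H19 and -0.0109 without chromosome 7. In myotubes it was -0.0032 as a median, 0.0142 with each gene once, 0.101 in units of the SD, 0.0017 without Igf2 and H19 and -0.0335 without chromosome 7. In AraC-treated myotubes it was 0.208 in units of the SD, 0.0061 without Igf2 and H19 and -0.0122 without chromosome 7.

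The excess over the class in myoblasts was -0.0039 as a median, 0.0024 over 3 bins, 0.0036 with the gene's middle, 0.0020 with each gene once, 0.0136 in units of the SD, -0.00011 with classes of PC1 only, -0.0054 with classes of start sites only, -0.0013 without Igf2 and H19 and -0.0014 without chromosome 7. In myotubes it was 0.173 in units of the SD, 0.0035 with classes of start sites only, 0.0075 without Igf2 and H19 and -0.0064 without chromosome 7. In AraC-treated myotubes it was 0.0125 as a median, 0.268 in units of the SD, 0.0128 with classes of start sites only, 0.0120 without Igf2 and H19 and 0.0079 without chromosome 7. The cause of these shifts was not tested, beyond the smaller number of pairs where loci were left out.

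The median difference of PC1 from myoblasts to myotubes was -0.295 on PC1 as computed, -0.016 over 3 bins and -0.0017 on the component from other autosomes, and 0.045 on PC1 as computed from myoblasts to AraC-treated myotubes. On PC1 as computed, the sign turned for Mest (1.56 from myoblasts to myotubes, 1.06 from myoblasts to AraC-treated myotubes, -0.507 from myotubes to AraC-treated myotubes), Snrpn (-0.295 and, to AraC-treated myotubes, -0.013), Peg3 (-0.200, myoblasts to AraC-treated myotubes), Igf2 with H19 (-0.047, myotubes to AraC-treated myotubes) and Grb10 (0.092, the same pair), by construction, since the SD of PC1 differed between conditions. On the component from other autosomes it turned for Snrpn (-0.011) and Dlk1 (0.059) from myoblasts to myotubes. The differences from myoblasts of Igf2 with H19, Cdkn1c and Igf2r did not turn under any of the 3 alternatives.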
